A study of Mus musculus with 4 samples.

Results

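Limb and diaphragm regional transcription factors were followed here as a fixed set of 9 genes, Tbx15, Shox2, Tbx5, Tbx4, Pitx1, Gata4, Gata6, Wt1 and Tcf21, among the 32285 genes listed in each matrix. They were matched by symbol, and all 9 were found. The libraries hold mononuclear cells of skeletal muscle from mice aged 14 weeks, profiled as single cells by the version 3.1 3' kit of 10x Genomics after cryopreservation. There were 4 libraries and no replicate, 1 for the quadriceps and 1 for the diaphragm of each genotype. Where 4 values follow each other with no library named, the order is WT quadriceps first, then WT diaphragm, then mdx5cv quadriceps, with mdx5cv diaphragm last. The mdx5cv mouse carries a mutation in the dystrophin gene and is used as a model of muscular dystrophy; WT mice do not carry it. The labels give neither the number of animals behind a library nor their sex, so library, animal and group cannot be told apart. Every interval given is at 95% and covers counting error only.

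Limb muscle and the diaphragm form from different parts of the embryo. The muscle cells of both migrate from somites, whereas the connective tissue of the limb comes from limb bud mesenchyme and that of the diaphragm from the pleuroperitoneal folds and septum transversum. Tbx5 is known for starting the forelimb, Tbx4 and Pitx1 for hindlimb growth and identity, and Shox2 and Tbx15 for limb skeletal elements. Gata4, Gata6 and Wt1 act in the mesenchyme that builds the diaphragm, where their loss in mice leads to diaphragmatic hernia, and Tcf21 is a basic helix-loop-helix factor of visceral mesenchyme.

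Shox2 and Tbx4 were both low in diaphragm fibroblasts, and the 250 bases before their transcription starts are shown because these are the promoters, among the members low there, that the RefSeq promoter table holds (GRCm38.p6; 3 of the 9 members have an entry). The Shox2 stretch is chr3:66981772-66982021 on the - strand and the Tbx4 stretch is chr11:85896515-85896764 on the + strand. Neither stretch overlaps an exon annotated by GENCODE M21, and the Tbx4 start lies inside the annotated span of the gene. Capitals mark the TATA box TATAAA and the GC box GGGCGG on either strand.
Shox2: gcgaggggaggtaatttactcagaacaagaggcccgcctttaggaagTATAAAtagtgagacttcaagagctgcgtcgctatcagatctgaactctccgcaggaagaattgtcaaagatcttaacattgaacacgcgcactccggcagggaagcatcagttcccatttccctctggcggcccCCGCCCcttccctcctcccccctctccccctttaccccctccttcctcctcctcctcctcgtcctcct
Tbx4: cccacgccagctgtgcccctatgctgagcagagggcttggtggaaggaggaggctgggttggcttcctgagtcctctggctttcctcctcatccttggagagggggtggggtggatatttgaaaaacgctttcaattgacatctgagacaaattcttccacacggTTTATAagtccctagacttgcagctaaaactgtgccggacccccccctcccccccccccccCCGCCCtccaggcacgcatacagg
Each motif was searched on both strands: the TATA box, the GC box, the GATA motif GATAA (in 22.6% of 32851 promoter stretches of this length), the T-box core TCACAC (12.3%), the homeodomain core TAATTA (4.84%) and the CCAAT box, spelt as its name (33.9%). TATAAA starts 203 bases before the Shox2 start on the same strand and lies 85 bases before the Tbx4 start on the opposite strand, and 12.4% of promoter stretches hold it. GGGCGG lies on the opposite strand, 68 bases before the Shox2 start and 24 bases before the Tbx4 start, and 32.7% of promoter stretches hold it. The letters of the other 4 motifs are not in these windows, and a match of letters is no measured binding.

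On GRCm38, as annotated by GENCODE M21, Tbx15 lies on chromosome 3 from 99240381 to 99354259 (+ strand), Shox2 on chromosome 3 from 66971727 to 66981771 (- strand), Tbx5 on chromosome 5 from 119832668 to 119885219 (+ strand) and Tbx4 on chromosome 11 from 85886422 to 85916097 (+ strand). Pitx1 lies on chromosome 13 from 55825051 to 55836192 (- strand), Gata4 on chromosome 14 from 63198922 to 63271692 (- strand) and Gata6 on chromosome 18 from 11052064 to 11085635 (+ strand). Wt1 lies on chromosome 2 from 105126529 to 105173616 (+ strand) and Tcf21 on chromosome 10 from 22817281 to 22820174 (- strand). The gene identifiers in the matrices were those of the annotation for all 9. Tbx5, Tbx4, Gata4 and Wt1 overlap no other annotated gene. Tbx15, Shox2, Gata6 and Tcf21 each overlap a gene on the opposite strand, so their reads could not be told apart from those of these neighbours if strand was not used in counting. Pitx1 overlaps a gene on each strand, and in the overlap on its own strand reads could not be told apart even with strand used.

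Barcodes were kept with at least 1000 unique molecular identifiers (UMIs, each a captured transcript molecule), at least 500 genes and at most 15% mitochondrial UMIs, which left 4911 barcodes in WT quadriceps, 7516 in WT diaphragm, 8334 in mdx5cv quadriceps and 7402 in mdx5cv diaphragm, against a loading target of 5000 cells. The median was 2055 UMIs per barcode in WT quadriceps and lay between 4356 and 5329 in the other 3 libraries. Library pairs shared between 5 and 17 kept barcodes, against 5.3 to 9.2 expected if barcodes were random. Every pair but WT quadriceps with mdx5cv diaphragm (5 against 5.3) shared more than its expectation, up to 17 against 9.2 for WT diaphragm with mdx5cv quadriceps. The reason was not tested. Cells were gated by counting detected class markers. Fibroblasts numbered 823, 6081, 1167 and 2771 in that library order, and muscle stem cells 234, 83, 189 and 197. Mesothelial cells, the lining of the body cavities, numbered 88 in WT diaphragm and 50 in mdx5cv diaphragm and 0 in both quadriceps libraries. Mural cells numbered 113, 8, 23 and 11, too few in the diaphragm for a comparison of muscles, which required 20 cells on each side.

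Levels are counts of a gene per 1000000 UMIs summed over the gated cells of a library (CPM), and levels of different genes are not compared, since a 3' count depends on the transcript. A gene was called higher or lower in a comparison when it held at least 10 UMIs over both libraries, the ratio of CPM reached 2-fold and the exact interval of the ratio excluded 1. A call therefore compares 2 libraries, not 2 conditions. In fibroblasts, all 9 members reached 10 UMIs in WT and 8 did in mdx5cv (all but Tcf21), several of them only through the muscle where they were high. Of the 9, 5 were called lower in the diaphragm than in the quadriceps in both genotypes (Tbx15, Shox2, Tbx5, Tbx4 and Pitx1) and 3 were called higher in both (Gata4, Gata6 and Wt1). Of the 14372 genes tested in WT, 6.4% were called lower and 3.74% higher. Of the 13854 tested in mdx5cv, 6.35% were called lower and 3.04% higher. The members were chosen with earlier results of these data known, so their larger share of calls is a description and no test of the set. Called the same way in both genotypes were 2.34% of 13470 genes for lower and 1.38% for higher.

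**Figure D1:**
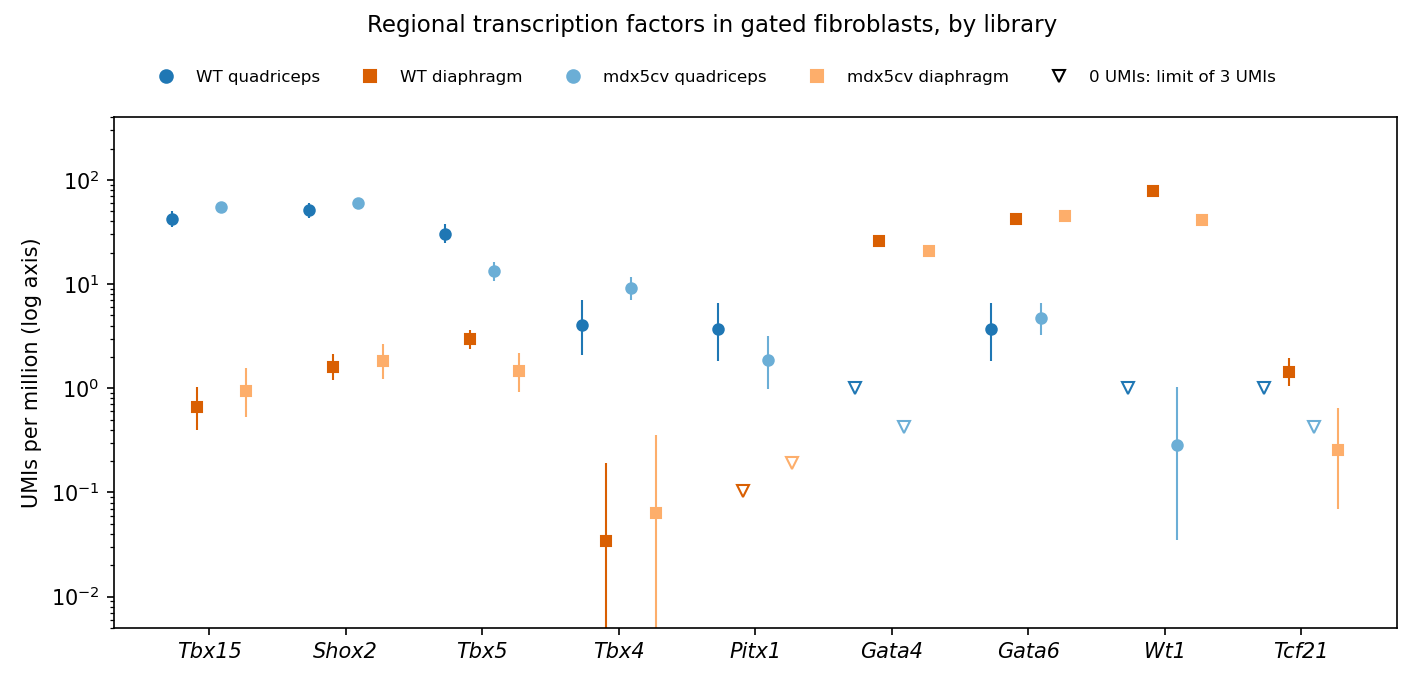
Level of the 9 members in gated fibroblasts of each library, in CPM on a log axis, with 95% Poisson intervals as bars (the lowest bars run past the lower edge) and open triangles at the limit of 3 UMIs where none was counted. The quadriceps circles lie above the diaphragm squares for Tbx15, Shox2, Tbx5, Tbx4 and Pitx1, and the diaphragm squares lie above for Gata4, Gata6 and Wt1.

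Among the factors of limb mesenchyme, Tbx15, a T-box repressor of the limb and shoulder skeleton, stood at 42.6 CPM (127 UMIs) in WT quadriceps fibroblasts, 0.654 CPM (19 UMIs) in WT diaphragm, 54.5 CPM (381 UMIs) in mdx5cv quadriceps and 0.950 CPM (15 UMIs) in mdx5cv diaphragm. Both quadriceps values were high and both diaphragm values low. The diaphragm level was 65.2-fold lower in WT (interval 40.1 to 112) and 57.4-fold lower in mdx5cv (34.4 to 104). The share of fibroblasts with a Tbx15 UMI was 13.0%, 0.312%, 25.7% and 0.505% in the same library order, and 4.50%, 0.0329%, 5.74% and 0.144% after each cell was thinned to 1000 UMIs. In myeloid cells, which serve as a class that should lack the gene, 0.191% of 5246 cells of mdx5cv quadriceps had a Tbx15 UMI at a median of 5531 UMIs, against a median of 4802 in the fibroblasts of that library.

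Shox2, a homeobox gene required for the proximal limb skeleton, was counted at 51.3 CPM (153 UMIs) in WT quadriceps fibroblasts, 1.62 CPM (47 UMIs) in WT diaphragm, 60.2 CPM (421 UMIs) in mdx5cv quadriceps and 1.84 CPM (29 UMIs) in mdx5cv diaphragm. The order of the libraries was that of Tbx15. The diaphragm level was 31.7-fold lower in WT (22.8 to 45.0) and 32.8-fold lower in mdx5cv (22.5 to 49.6). A Shox2 UMI was present in 15.2%, 0.757%, 27.8% and 0.938% of fibroblasts, or in 3.77%, 0.0822%, 6.51% and 0.144% after thinning, and in 0.267% of myeloid cells of mdx5cv quadriceps.

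The quadriceps is a hindlimb muscle, yet the forelimb factor Tbx5 was present there: 30.5 CPM (91 UMIs) in WT quadriceps fibroblasts, 2.96 CPM (86 UMIs) in WT diaphragm, 13.3 CPM (93 UMIs) in mdx5cv quadriceps and 1.46 CPM (23 UMIs) in mdx5cv diaphragm. The quadriceps levels were again the higher ones, and the mdx5cv level was the lower in each muscle. Tbx5 was 10.3-fold lower in the diaphragm in WT (7.60 to 14.0) and 9.14-fold lower in mdx5cv (5.74 to 15.1). Tbx4, the hindlimb T-box factor, had 12 UMIs (4.03 CPM) in WT quadriceps fibroblasts and 64 UMIs (9.15 CPM) in mdx5cv quadriceps, against 1 UMI in each diaphragm library. With 1 UMI behind the diaphragm level, the ratio was 0.00855 in WT (0.00020 to 0.0578) and 0.00692 in mdx5cv (0.000172 to 0.0399).

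Pitx1, the homeobox gene that marks the hindlimb, had 11 UMIs (3.69 CPM) in WT quadriceps fibroblasts, 13 UMIs (1.86 CPM) in mdx5cv quadriceps and 0 in both diaphragm libraries. Measured against 3 UMIs per library, the limit used here for a count of 0, the diaphragm level was at least 35.7-fold lower in WT and at least 9.79-fold lower in mdx5cv. The exact intervals, which add the counting error of the quadriceps UMIs, began at 24.5-fold and 6.89-fold. Barcodes with 10 to 100 UMIs, which hold free RNA rather than cells, carried Pitx1 at 17.8, 10.0, 9.44 and 4.34 CPM in the same library order. Pitx1 in fibroblasts was therefore below its level in free RNA in every library, and its source was not tested. In the myeloid cells of mdx5cv quadriceps Pitx1 had 0 UMIs, with an upper limit of 0.11 CPM.

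The low diaphragm levels of the other limb factors were near those of free RNA, where Tbx15 stood at 1.0 CPM in WT and 0.868 CPM in mdx5cv diaphragm, Shox2 at 5.0 and 3.47 CPM and Tbx5 at 3.0 and 0.868 CPM, from 1 to 5 UMIs each. The 2417 myeloid cells of mdx5cv diaphragm held less. They had 0 UMIs of Tbx5 (at most 0.235 CPM), 1 of Shox2 (0.0638 CPM, at most 0.355) and 3 of Tbx15 (0.191 CPM, 0.0395 to 0.559). The fibroblast levels of that library lay above these for Tbx5 (1.46 CPM, 0.923 to 2.19) and Shox2 (1.84 CPM, 1.23 to 2.64), while the Tbx15 intervals met (0.950 CPM, 0.532 to 1.57). In WT diaphragm the 251 myeloid cells had 0 UMIs of all 3 genes, which allows up to 2.89 CPM and does not separate them from the fibroblast levels. Whether myeloid cells and fibroblasts carry free RNA alike was not tested, nor was the source of the low diaphragm counts.

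**Figure D2:**
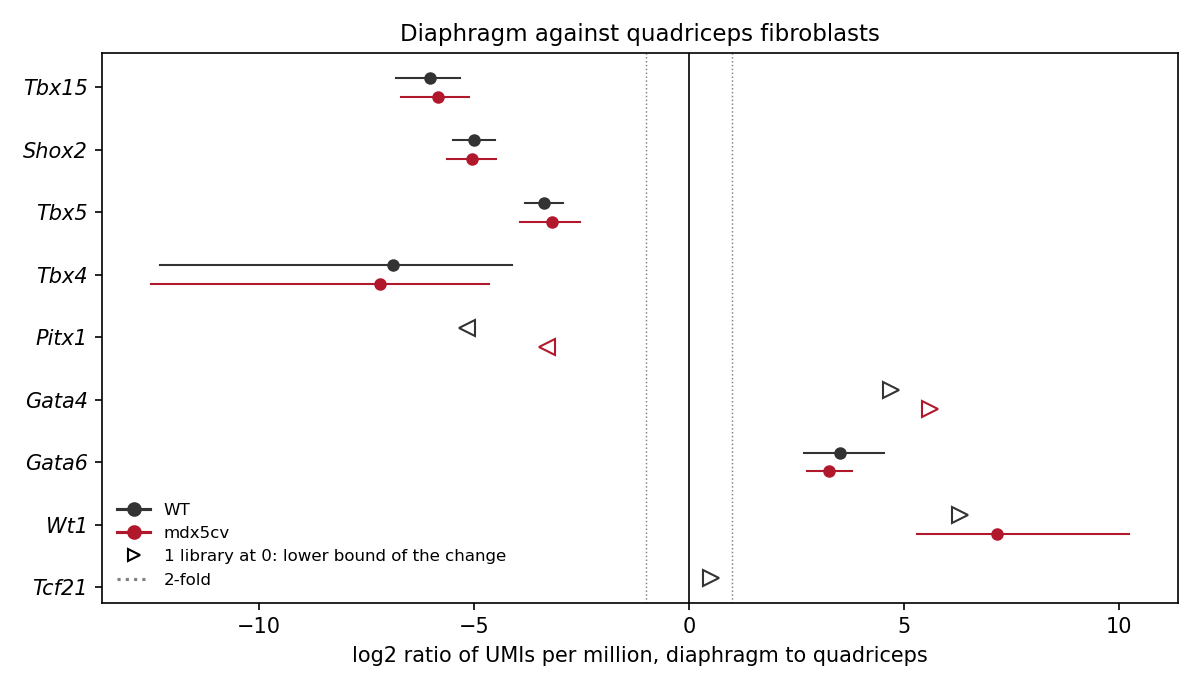
Log2 ratio of CPM, diaphragm to quadriceps, in gated fibroblasts of WT (grey) and mdx5cv (red); lines are 95% intervals, open triangles are lower bounds of the change where 1 library had 0 UMIs, and dotted lines mark 2-fold. The 2 genotypes lie side by side for Tbx15, Shox2, Tbx5 and Gata6; Tcf21 is drawn for WT alone, since it missed 10 UMIs in mdx5cv.

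Of the factors of diaphragm mesenchyme, Gata4, a zinc finger factor of heart and diaphragm, had 0 UMIs in fibroblasts of both quadriceps libraries, 754 UMIs (26.0 CPM) in WT diaphragm and 327 UMIs (20.7 CPM) in mdx5cv diaphragm. Against 3 UMIs in the quadriceps library the diaphragm level was at least 25.8-fold higher in WT and at least 48.3-fold higher in mdx5cv, and the exact intervals began at 20.9-fold and 39.0-fold. By the same limit of 3 counts, 0 of 823 WT quadriceps fibroblasts allows a share of up to 0.365% of cells with a UMI, whereas 11.5% of WT diaphragm and 11.2% of mdx5cv diaphragm fibroblasts had one (2.71% and 2.27% after thinning). In the diaphragm myeloid cells, 0.398% of 251 cells in WT (median 4589 UMIs) and 0.124% of 2417 cells in mdx5cv (median 5981) had a Gata4 UMI, against fibroblast medians of 4513 and 4708.

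Gata6, the close relative of Gata4, was at 3.69 CPM (11 UMIs) in WT quadriceps fibroblasts, 42.3 CPM (1230 UMIs) in WT diaphragm, 4.72 CPM (33 UMIs) in mdx5cv quadriceps and 44.8 CPM (707 UMIs) in mdx5cv diaphragm. Both diaphragm levels were above both quadriceps levels. The diaphragm level was 11.5-fold higher in WT (6.39 to 23.0) and 9.48-fold higher in mdx5cv (6.69 to 13.9). The low quadriceps level in WT lay below that in barcodes with 10 to 100 UMIs of the same library (13.3 CPM, 12 UMIs) and above that of the 384 myeloid cells (0.611 CPM, 1 UMI), and the source of these 11 UMIs was not tested. Free RNA of the diaphragm libraries held all 3 factors at values below the fibroblast level. Gata4 was at 17.0 CPM in WT and 7.81 CPM in mdx5cv, Gata6 at 30.0 and 31.3 CPM and Wt1 at 52.0 and 20.8 CPM. These values rest on 999209 UMIs of free RNA in WT and 1151910 in mdx5cv. In WT, counting error did not separate free RNA from fibroblasts for Gata4 and Gata6.

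Wt1, the zinc finger factor of mesothelium, kidney and gonad, was plentiful in diaphragm fibroblasts, with 2286 UMIs (78.7 CPM) in WT and 651 UMIs (41.2 CPM) in mdx5cv, against 0 UMIs in WT quadriceps and 2 UMIs, both in 1 cell, in mdx5cv quadriceps. The level was at least 78.2-fold higher in the diaphragm in WT (exact interval from 63.5), and the ratio was 144 in mdx5cv (39.7 to 1192). A Wt1 UMI was found in 25.1% of WT and 18.7% of mdx5cv diaphragm fibroblasts (7.06% and 4.29% after thinning) and in 0.277% of the 361 lymphoid cells of WT diaphragm (median 2717 UMIs). Its antisense neighbour Wt1os was counted in the same fibroblasts, with 98 UMIs in WT diaphragm and 21 in mdx5cv diaphragm, and with 0 in both quadriceps libraries.

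Since mesothelial cells carry Wt1 and Gata6, their markers were counted in the gated fibroblasts. The 10 mesothelial markers together stood at 12.6 CPM in WT diaphragm fibroblasts and 6.84 CPM in mdx5cv diaphragm, against 32.9 CPM in the fibroblasts of WT quadriceps and 13.6 CPM in those of mdx5cv quadriceps. In the mesothelial cells they stood at 6905 CPM in WT and 6102 CPM in mdx5cv. The defining markers Msln and Upk3b were each detected in at most 0.243% of fibroblasts of any library. If every mesothelial marker UMI in the WT diaphragm fibroblasts came from mesothelial cells, 24.6 of the 2286 Wt1 UMIs, 15.9 of the 1230 Gata6 UMIs and 0.956 of the 754 Gata4 UMIs would come with them, and in mdx5cv diaphragm 8.46 of 651, 5.96 of 707 and 0.392 of 327. Of the 1528 WT diaphragm fibroblasts with a Wt1 UMI, 1369 also had a UMI of Pdgfra, the receptor that marks fibro/adipogenic progenitors. Of the same cells, 80 had a UMI of any mesothelial marker. Among the 4553 fibroblasts without Wt1, 3873 had Pdgfra and 252 a mesothelial marker. Pdgfra is a marker of the fibroblast gate, so a high share was built in. It was also found in 26 of the 71 WT mesothelial cells with Wt1.

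Tcf21 was scarce: 42 UMIs (1.45 CPM) in WT diaphragm fibroblasts, 4 UMIs (0.253 CPM) in mdx5cv diaphragm and 0 in both quadriceps libraries. The 42 UMIs came from 27 cells, of which 1 cell held 11. At this depth a difference between the muscles was not called, as the bound against 3 UMIs in WT quadriceps was 1.44-fold.

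The 2 sets were counted per cell as well. A UMI of Gata4, Gata6 or Wt1 was present in 42.1% of WT and 40.0% of mdx5cv diaphragm fibroblasts, against 1.34% and 2.06% in WT and mdx5cv quadriceps. After thinning these shares were 13.4%, 10.7%, 0.243% and 0.600%. A UMI of Tbx15, Shox2, Tbx5, Tbx4 or Pitx1 was present in 35.5% of WT and 52.1% of mdx5cv quadriceps fibroblasts, against 2.32% and 2.20% in the diaphragm (11.2%, 14.4%, 0.461% and 0.289% after thinning). Of the diaphragm fibroblasts with a UMI of the limb set, 83 of 141 in WT and 31 of 61 in mdx5cv also had one of the diaphragm set. Of the quadriceps fibroblasts with a UMI of the diaphragm set, 2 of 11 in WT and 14 of 24 in mdx5cv also had one of the limb set. These cells were not matched for depth with the others.

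Within diaphragm fibroblasts, cells with a UMI of a member were compared with cells without it, as a description. In WT diaphragm, Wt1 was detected in 378 of the 998 cells with Gata6 (37.9%) and in 22.6% of the other cells, and in 134 of 527 (25.4%) against 17.1% in mdx5cv diaphragm. The cells with Gata6 were the deeper ones, at a median of 5114 UMIs against 4404 in WT and 6300 against 4461 in mdx5cv. The 79 WT diaphragm cells with the limb factor Tbx5 had Wt1 in 53.2% and Gata6 in 39.2%, against 24.8% and 16.1% of the cells without Tbx5. Their median was 5424 UMIs, against 4504 in the cells without it. The 46 WT diaphragm cells with Shox2 had Wt1 in 41.3%, against 25.0% of the cells without it, at medians of 4906 and 4507 UMIs. Neither comparison was matched for depth. Shox2 was seen in 0 of the 19 Tbx15 cells of WT diaphragm, against 0.759% of the cells without Tbx15. In mdx5cv quadriceps it was seen in 93 of the 300 Tbx15 cells (31.0%), against 26.6% of the cells without. In WT quadriceps it was seen in 10 of 107 (9.35%), against 16.1%. In each of these libraries the intervals of cells with and without Tbx15 overlapped.

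Fibroblasts were split by 6 genes each of a progenitor-like state (Pi16, Dpp4, Sema3c, Efhd1, Cd55, Pcsk6) and a parenchymal state (Col15a1, Smoc2, Hsd11b1, Gfra1, Mme, Col4a1). Of the fibroblasts, 347, 1973, 114 and 215 were progenitor-like and 418, 2800, 975 and 2102 parenchymal in library order. Tbx5 was higher in the progenitor-like cells of WT diaphragm (4.86 against 1.67 CPM, ratio 2.92, 1.72 to 5.15) and mdx5cv quadriceps (41.1 against 10.1 CPM, ratio 4.09, 2.46 to 6.62), and its ratio was 1.47 (0.926 to 2.36) in WT quadriceps and 3.31 (0.768 to 11.2) in mdx5cv diaphragm. Wt1 was also higher in progenitor-like cells, at 98.9 against 61.5 CPM in WT diaphragm (ratio 1.61, 1.46 to 1.77) and 74.0 against 36.6 CPM in mdx5cv diaphragm (2.02, 1.61 to 2.52).

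Tbx4 went the other way in mdx5cv quadriceps, with 62 of the 64 UMIs in parenchymal and 0 in progenitor-like cells. The parenchymal level was 10.4 CPM (7.96 to 13.3), and the progenitor-like level at most 6.06 CPM. In WT quadriceps its ratio of progenitor-like to parenchymal cells was 0.220 (0.0231 to 1.06), and the interval held 1. Gata6 differed less between the states, with ratios of 1.28 (1.13 to 1.46) in WT diaphragm and 1.2 (0.925 to 1.55) in mdx5cv diaphragm, and for Gata4 the interval held 1 in both (0.854, 0.723 to 1.01, and 0.725, 0.435 to 1.14). Tbx15 and Shox2 were somewhat lower in the progenitor-like cells of WT quadriceps, with ratios of 0.674 (0.459 to 0.982) and 0.664 (0.466 to 0.939), and the interval held 1 in mdx5cv quadriceps (0.909, 0.603 to 1.32, and 0.804, 0.535 to 1.17). Within each state taken alone, Tbx15, Shox2 and Tbx5 were still called lower and Gata4, Gata6 and Wt1 still called higher in the diaphragm in both genotypes. Tbx4 and Pitx1 held too few UMIs for a call in the progenitor-like cells of either genotype.

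**Figure D3:**
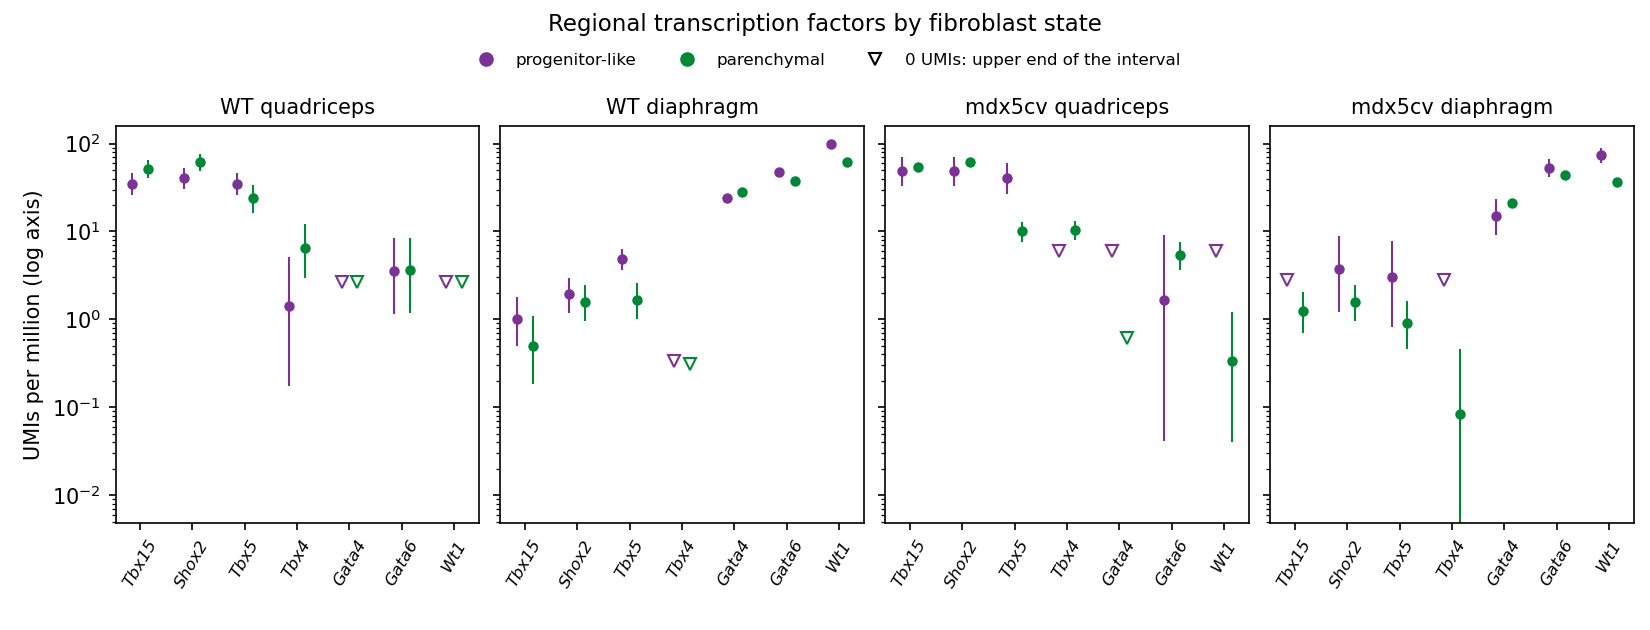
Levels of 7 members in progenitor-like (purple) and parenchymal (green) fibroblasts of each library, in CPM on a log axis, with 95% intervals; open triangles mark the upper end of the interval where no UMI was counted. Tbx5 and Wt1 lie higher in the progenitor-like cells of WT diaphragm, and Tbx4 lies higher in the parenchymal cells of mdx5cv quadriceps.

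Dystrophin genotype was compared within each muscle. In quadriceps fibroblasts, 1 of the 9 members was called lower in mdx5cv (Tbx5, ratio 0.436, 0.323 to 0.588; 7.5% of 12846 genes were called lower) and 1 higher (Tbx4, ratio 2.28, 1.22 to 4.63; 9.33% were called higher). In diaphragm fibroblasts, Tbx5 (0.492, 0.296 to 0.787) and Tcf21 (0.175, 0.0456 to 0.483) were called lower, with 6.84% of 14888 genes called lower and 6.27% called higher, and no member was called higher. These shares are over genes with at least 10 UMIs, a minimum that 6 members met in the quadriceps and 7 in the diaphragm. Of the 2 called lower in the diaphragm, Tcf21 had 11 of its 42 WT UMIs in 1 cell. Progenitor-like cells were 347 of 823 fibroblasts in WT quadriceps and 114 of 1167 in mdx5cv quadriceps. Tbx5 was higher in them in mdx5cv quadriceps, while in WT quadriceps the interval of the ratio held 1. Within progenitor-like cells Tbx5 was at 35.0 CPM in WT (49 UMIs, 25.86 to 46.22) and 41.1 CPM in mdx5cv quadriceps (25 UMIs, 26.59 to 60.65). These intervals overlapped. Within parenchymal cells it was at 23.8 CPM (16.38 to 33.41) and 10.1 CPM (7.668 to 12.93). In the diaphragm, progenitor-like cells were 1973 of 6081 fibroblasts in WT and 215 of 2771 in mdx5cv. Tbx5 was there at 4.86 CPM in WT and 3.02 CPM in mdx5cv (4 UMIs, 0.823 to 7.74) in progenitor-like cells. In parenchymal cells it was at 1.67 CPM (1.02 to 2.57) and 0.913 CPM (0.456 to 1.63). Whether the shares of the states account for the Tbx5 difference was not tested in either muscle.

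Wt1 was 0.524 times as high in mdx5cv as in WT diaphragm fibroblasts (0.480 to 0.572), short of the 2-fold rule, and its interval excluded 1. The log2 ratio was -0.93, and with cells weighted equally it was -0.67. With at most 5% mitochondrial UMIs it was -1.06, and Wt1 was then called lower. Within progenitor-like cells Wt1 was at 98.9 CPM in WT and 74.0 CPM in mdx5cv diaphragm, and within parenchymal cells at 61.5 and 36.6 CPM. Whether the shares of the states account for part of the Wt1 difference was not tested. Over all diaphragm fibroblasts, the ratio for Gata4 (0.798, 0.699 to 0.91) was also below 1, and that for Gata6 (1.06, 0.963 to 1.16) was not distinguishable from 1. In the quadriceps, the ratio was 1.28 (1.04 to 1.58) for Tbx15, 1.17 (0.973 to 1.42) for Shox2, 0.504 (0.208 to 1.24) for Pitx1 and 1.28 (0.631 to 2.81) for Gata6. The difference between genotypes in the log2 ratio of diaphragm to quadriceps was 0.18 (-0.84 to 1.20) for Tbx15, -0.05 (-0.77 to 0.67) for Shox2, 0.18 (-0.61 to 0.96) for Tbx5 and -0.27 (-1.27 to 0.72) for Gata6, and every interval held 0.

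The tenocyte gate, for cells of tendon, passed 78, 44, 129 and 55 cells in library order. The diaphragm cells went against the label. The tendon factor Scx was detected in 56.4% and 57.4% of gated cells of WT and mdx5cv quadriceps but in 2.27% and 34.5% of those of WT and mdx5cv diaphragm, and the tendon proteoglycan Kera in 69.2% and 31.0% against 0% and 5.45%. Pdgfra was detected in 65.9% and 54.5% of the diaphragm cells, against 15.4% and 28.7% in quadriceps. The diaphragm cells are therefore described by the gate and not called tenocytes.

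In the gated quadriceps tenocytes, Tbx15 was at 30.6 CPM (8 UMIs) in WT and 65.4 CPM (56 UMIs) in mdx5cv, and Shox2 at 38.3 CPM (10 UMIs) and 64.3 CPM (55 UMIs). Tbx4 was at 11.5 CPM (3 UMIs) and 14.0 CPM (12 UMIs), and Pitx1 at 23.0 CPM (6 UMIs) and 10.5 CPM (9 UMIs), so both hindlimb factors were present at counts of 12 or fewer. The quadriceps cells had 0 UMIs of Gata4, Gata6, Wt1 and Tcf21. In the diaphragm cells that passed this gate, Wt1 was at 66.8 CPM (16 UMIs) in WT and 36.7 CPM (14 UMIs) in mdx5cv, Gata6 at 37.6 CPM (9 UMIs) and 42.0 CPM (16 UMIs), and Gata4 at 16.7 CPM (4 UMIs) and 26.2 CPM (10 UMIs), while Tbx15 had 0 and 1 UMI and Shox2 0 and 2.

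Under the same rule, Wt1 was called higher and Shox2 lower in the diaphragm cells of WT, where 2 of the 9 members reached 10 UMIs, and Gata4, Gata6 and Wt1 were called higher and Tbx15 and Shox2 lower in mdx5cv, where 6 did. The background was 6.58% of 6243 genes higher and 6.89% lower in WT and 2.95% of 9167 genes higher and 5.49% lower in mdx5cv. Tbx15 was also called higher in mdx5cv than in WT quadriceps tenocytes (ratio 2.14, 1.01 to 5.19; 5.23% of 8956 genes were called higher and 4.52% lower). These calls rest on 10 to 56 UMIs on the higher side and most were lost under other settings.

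In the mesothelial cells of the diaphragm, Wt1 was at 466 CPM (206 UMIs) in WT and 478 CPM (108 UMIs) in mdx5cv, with a UMI in 80.7% and 80.0% of cells. Gata6 was at 301 CPM (133 UMIs) and 337 CPM (76 UMIs), and Gata4 at 18.1 CPM (8 UMIs) and 22.1 CPM (5 UMIs). The ratio of mdx5cv to WT was 1.03 (0.806 to 1.30) for Wt1, 1.12 (0.833 to 1.5) for Gata6 and 1.23 (0.315 to 4.25) for Gata4, and no member was called, against 4.54% of 7647 genes called higher and 2.01% lower. The limb factors had at most 1 UMI each in a mesothelial library. Set beside the diaphragm fibroblasts, the Wt1 and Gata6 levels were higher in mesothelial cells, whereas the Gata4 intervals of the 2 classes overlapped (18.1 CPM, 7.81 to 35.6, against 26.0 CPM in WT).

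**Figure D4:**
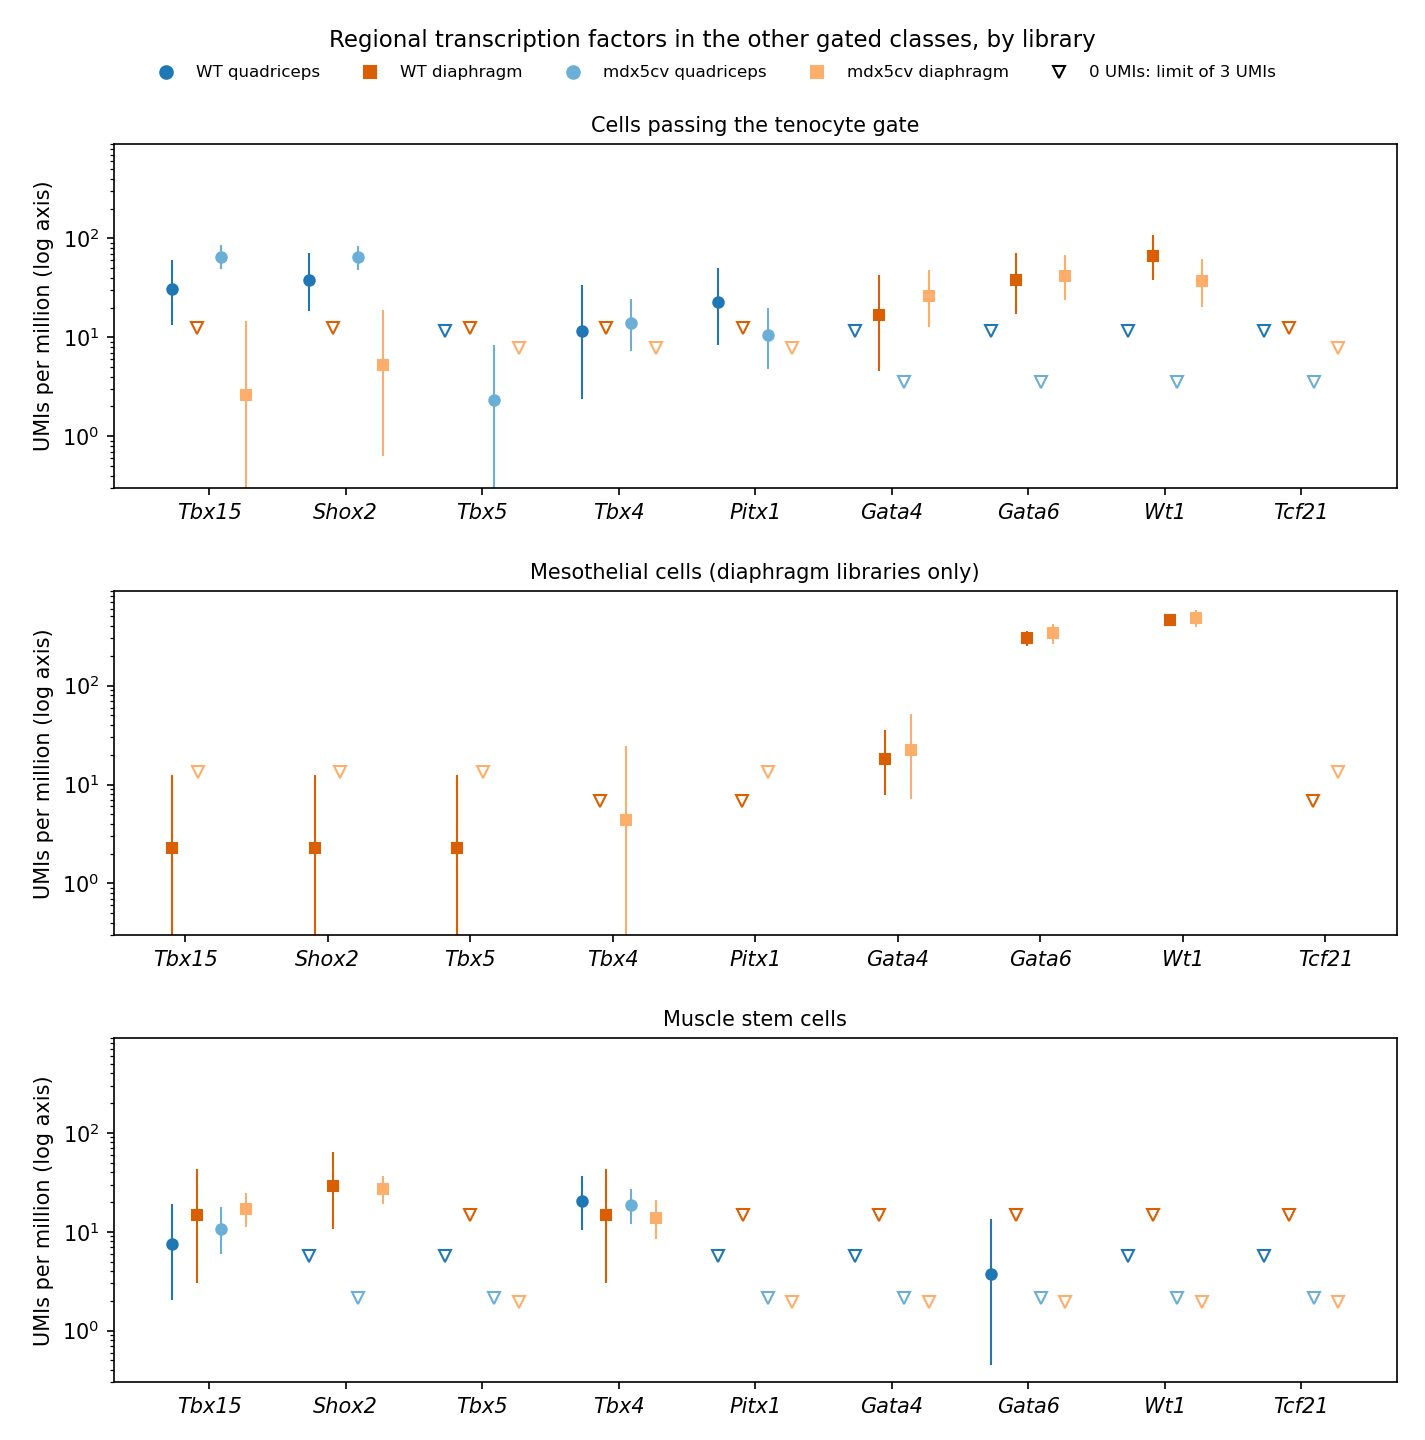
Levels of the 9 members in cells passing the tenocyte gate, in mesothelial cells of the diaphragm and in muscle stem cells, by library, in CPM on a log axis, with 95% Poisson intervals and open triangles at the limit of 3 UMIs where none was counted. Wt1 and Gata6 stand between 301 and 478 CPM in mesothelial cells, and Shox2 is seen in stem cells of the 2 diaphragm libraries.

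Muscle stem cells, which rebuild fibres, showed other levels of the limb factors than fibroblasts. They were gated by at least 3 markers of a list that includes Pax7, so a gated cell need not have a Pax7 UMI. Shox2 had 0 UMIs in stem cells of both quadriceps libraries, 6 UMIs (29.3 CPM) in WT diaphragm and 41 UMIs (26.8 CPM) in mdx5cv diaphragm. The high muscle was thus the diaphragm, whereas in fibroblasts it was the quadriceps. In mdx5cv the level was at least 12.6-fold higher in the diaphragm, with an exact interval from 9.78 (1 of 9 members called, against 1.53% of 10698 genes called higher and 6.55% lower). In WT the 6 UMIs did not reach the minimum of 10, and no member was called there, against 3.15% of 6787 genes called higher and 6.42% lower.

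The 41 Shox2 UMIs of mdx5cv diaphragm lay in 31 of the 197 stem cells (15.7%, or 2.54% after thinning), of which 19 had a Pax7 UMI and 0 a Pdgfra UMI, beside 102 of the 166 cells without Shox2 with a Pax7 UMI. The 6 WT UMIs lay in 5 cells, of which 0 had a Pax7 UMI, beside 39 of the 78 cells without Shox2. In 0.0414% of the myeloid cells of mdx5cv diaphragm a Shox2 UMI was found, at a median of 5981 UMIs against 5883 in the stem cells of that library. The 10 fibroblast markers together stood at 794, 713, 2759 and 1928 CPM in the stem cells, in library order, with 1 of the 10 at 0, in mdx5cv diaphragm. The 10 stem cell markers stood at 2366.3, 2148.9, 1858.9 and 1623.5 CPM, below the fibroblast markers in both mdx5cv libraries. If every fibroblast marker UMI in the mdx5cv diaphragm stem cells came from fibroblasts, 0.0948 Shox2 UMIs would come with them. By Pdgfra, Dpt, Clec3b and Mfap5 alone, the same estimate was 0.0771 UMIs for Shox2, 1.88 for Gata6 and 1.73 for Wt1. Of Gata6 and Wt1, 0 UMIs were counted there. The source of the fibroblast marker UMIs and of the Shox2 UMIs was not tested. With at most 2 fibroblast markers allowed, 77 of 197 stem cells of mdx5cv diaphragm and 72 of 189 of mdx5cv quadriceps were left. In these, 12 Shox2 UMIs in mdx5cv diaphragm against 0 in quadriceps remained, still called higher.

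Tbx4 was present in the stem cells of all 4 libraries, at 20.7 CPM (11 UMIs) in WT quadriceps, 14.7 CPM (3 UMIs) in WT diaphragm, 18.5 CPM (26 UMIs) in mdx5cv quadriceps and 13.7 CPM (21 UMIs) in mdx5cv diaphragm. The 4 values lay within each other's intervals. The WT ratio of diaphragm to quadriceps was 0.709 (0.127 to 2.69) and the mdx5cv ratio 0.744 (0.398 to 1.37), which includes no change and leaves a 2-fold difference possible, while in fibroblasts of the diaphragm the same gene had 1 UMI per library. Tbx15 was at 7.51 CPM (4 UMIs), 14.7 CPM (3 UMIs), 10.7 CPM (15 UMIs) and 17.0 CPM (26 UMIs) in the same library order, with a ratio of 1.60 in mdx5cv (0.814 to 3.24). Stem cells had 0 UMIs of Tbx5, Pitx1, Gata4, Wt1 and Tcf21 in all 4 libraries, and 2 UMIs of Gata6, both in 1 cell of WT quadriceps.

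In mural cells, which wrap small vessels, counts were too low for any call: WT quadriceps had 4 Shox2, 2 Tbx15 and 2 Gata6 UMIs, mdx5cv quadriceps had 2 Shox2 and 1 Tbx15 UMI, and the diaphragm libraries had 0 of every member. The 8 and 11 diaphragm cells allow up to 92.7 and 80.1 CPM, so a level like that of fibroblasts was not detectable there.

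Gata6 was also counted in endothelial and myeloid cells. The endothelial level was 4.98 CPM (24 UMIs) in WT quadriceps, 15.9 CPM (3 UMIs) in WT diaphragm, 3.93 CPM (4 UMIs) in mdx5cv quadriceps and 13.6 CPM (13 UMIs) in mdx5cv diaphragm. In mdx5cv the endothelial ratio of diaphragm to quadriceps was 3.46 (1.07 to 14.6) and Gata6 was called higher, against 1.85% of 9885 genes called higher and 2.9% lower. The WT ratio of 3.20 had an interval from 0.616 to 10.5 and was not called. The difference between genotypes in the log2 ratio was 0.11 (-2.26 to 2.48), which holds 0. In myeloid cells, where Gata6 is known as the factor of resident peritoneal macrophages, it stood at 0.765 CPM (12 UMIs) in mdx5cv diaphragm against 0.178 CPM (6 UMIs) in mdx5cv quadriceps. The ratio was 4.30 (1.49 to 14.0), called higher, against 2.09% of 14332 genes called higher and 2.89% lower. A Gata6 UMI was found in 3 of 11 WT diaphragm and 3 of 12 mdx5cv diaphragm cells with at least 2 of 6 peritoneal macrophage genes, and in 1 of 240 and 7 of 2405 of the other myeloid cells.

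The 9 members were set beside 69 related regulators in 5 lists. Of 13 other T-box genes, 5 reached 10 UMIs in fibroblasts, and 3 were called lower and 0 higher in the diaphragm in each genotype: Tbx18 (30.5 against 3.61 CPM in WT, 53.6 against 5.19 CPM in mdx5cv), Tbx3 (10.1 against 3.48 and 12.0 against 2.91 CPM) and Tbx2 (5.70 against 2.68 and 7.30 against 2.91 CPM, named after its values were seen). The median log2 ratio of the 5 was -1.09 in WT and -1.32 in mdx5cv, beside -0.13 and -0.14 over all genes tested. Of 6 GATA factors and cofactors, 3 reached 10 UMIs and only Gata3, a factor of lymphoid and epithelial development, was called higher in both genotypes (ratio 7.59, 1.32 to 304, in WT and 5.40, 2.19 to 17.2, in mdx5cv). Their median was 0.70 and 0.65.

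Of 7 paired-type homeobox genes, 1 was called lower in WT and 2 in mdx5cv, of 6 and 4 that reached 10 UMIs (medians -0.81 and -0.64). Calls in the higher direction are not reported here for this list, so these counts do not describe the whole family. Alx4, a factor of limb polarity, was called lower in the diaphragm in both genotypes, at 0.138 CPM against 6.37 CPM in the quadriceps in WT and 0.0633 against 5.29 CPM in mdx5cv. Of 11 basic helix-loop-helix genes, 9 and 6 reached 10 UMIs, and 0 were called in either direction (medians -0.12 and 0.40).

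Of 32 other limb and body wall regulators, 26 reached 10 UMIs in each genotype, with 5 called higher and 6 lower in WT and 5 higher and 11 lower in mdx5cv (medians -0.04 and -0.73). Called higher in both were Meis2, a homeobox partner of proximal limb identity (111 against 32.9 CPM in WT, 136 against 57.6 CPM in mdx5cv), Foxc1 (33.4 against 7.71 and 30.9 against 14.3 CPM), Foxc2 and Lhx2. Among those called lower in both were En1, the ventral limb ectoderm factor (15.2 against 38.9 and 24.3 against 54.5 CPM), Osr2 (6.02 against 25.5 and 6.14 against 17.5 CPM), Emx2 (7.26 against 17.4 and 6.27 against 15.2 CPM), Lmx1b, the dorsal limb factor (0.275 against 2.01 and 0.190 against 4.29 CPM) and Irx3.

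Genes with the most similar pattern were sought over 26 sums of a class in a library with at least 50 cells, by Pearson's r of log2(CPM + 10), given as a description, since the sums share libraries and cell classes. Among the members, Gata6 and Wt1 had r = 0.96, Gata4 and Wt1 r = 0.89, Tbx15 and Shox2 r = 0.94, and Tbx5 and Tbx15 r = 0.60. Beyond the members, Wt1 was most like Rspo1 (r = 0.96) and Star (0.96), Gata6 like Rspo1 (0.94) and Vnn1 (0.92), and Gata4 like Col6a5 (0.94) and Slit2 (0.92). Tbx5 was most like Duox1 (0.94) and Trhde (0.93), Tbx4 like Col26a1 (0.88) and Ncam1 (0.87), Shox2 like Tbx18 (0.82) and Nckap5 (0.78), and Tbx15 like Tpbg (0.82) and Hoxc8 (0.80). Pitx1 with 44 UMIs and Tcf21 with 47 UMIs over the gated cells held too few for this.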

How the data were processed

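Raw UMI counts per gene and barcode were deposited by the authors as unfiltered matrices of 6794880 barcodes each, made with Cell Ranger 5.0.0 on mm10 per the submitters' processing notes (the matrix headers name another version). No source used here names the gene annotation or says whether reads were counted by strand. Barcodes with at least 1000 UMIs, 500 genes and at most 15% mitochondrial UMIs were kept. A cell joined a class by its detected markers (fibroblasts at least 6 of 10, tenocytes at least 4 of 8, other classes at least 3, and at most 2 of any other non-fibroblast class, with at most 3 tenocyte markers in fibroblasts, at most 7 fibroblast markers in mesothelial cells and at most 5 in classes outside the stroma). These minima were set after the marker counts were seen, and no doublet caller was run; the gate and leaving out the top 5% of barcodes by UMIs limit doublets. The members and all lists were chosen with earlier results of these data known. The text names the 9 members, class markers, the 2 most similar genes per member with at least 100 UMIs, and related genes called the same way in both genotypes (at most the 8 with the bound farthest from 1 in each direction); exceptions are stated, and 1 related gene is not reported here.

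Counts were summed per class and library. Intervals are exact Poisson (CPM), exact Clopper-Pearson (shares) and exact conditional (ratios), at 95%, and cover counting error only. With 1 library per group no test across libraries was run. A count of 0 was set to 3 UMIs per library in ratios. Totals were 18837891, 40226833, 62780685 and 49612759 UMIs, from WT quadriceps and WT diaphragm to mdx5cv quadriceps and mdx5cv diaphragm. Python 3.11.15, numpy 2.4.6, scipy 1.17.1, pandas 2.3.3 and matplotlib 3.10.9 were used, and the ratio calls were tested on simulated data.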

Additional observations from a re-analysis of the deposited data

How the results depend on the processing

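No paired analysis was possible because no replicate numbers link the libraries and each group is 1 library; muscles were compared within each genotype, with no test across libraries. Under all 12 alternatives that gave a value, no ratio of diaphragm to quadriceps in fibroblasts changed sign for a called member. Of 513 member ratios under alternatives, 440 stayed within or close to the interval of the reported ratio, 69 moved out of it and 4 were of called ratios that changed sign; 55 more had too few UMIs for a ratio. Of the 28 ratios not called, 14 changed sign under at least 1 alternative. The 4 sign changes of called ratios were log2 ratios of mdx5cv to WT: Tbx5 in quadriceps fibroblasts at 0.38 with no marker of another class allowed and 0.23 in progenitor-like cells, Tbx5 in diaphragm fibroblasts at 1.2 with no marker of another class, and Tbx15 in quadriceps tenocytes at -0.31 with thinning; the cause was not tested. The log2 ratio of Wt1 between genotypes in diaphragm fibroblasts ranged from -1.06, called lower, to -0.18. With no marker of another class allowed, 128 of 2771 mdx5cv diaphragm fibroblasts remained.

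In fibroblasts, the 5 members called lower in the diaphragm became 3 in both genotypes with no marker of another class and in progenitor-like cells, and 3 in WT with thinning and in parenchymal cells. For mdx5cv against WT quadriceps, the 1 called higher (Tbx4) became 0 with at most 5% mitochondrial UMIs, no marker of another class, thinning, and in either state alone, and the 1 called lower (Tbx5) became 0 with no marker of another class, thinning, equal weights, the top 5% left out and in progenitor-like cells. In the diaphragm, the 2 called lower became 1 with Pdgfra required, no marker of another class, thinning, equal weights, the top 5% left out and parenchymal cells, and 0 in progenitor-like cells.

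In stem cells of mdx5cv, the 1 called higher (Shox2) became 0 with at most 5% mitochondrial UMIs (9 against 0 UMIs) and with thinning, and 2 with equal weights (Shox2 and Tbx15). Of the calls in the tenocyte gate, those between muscles became 0 with no marker of another class and with thinning. With at most 5% mitochondrial UMIs, 0 were called in WT and 0 higher in mdx5cv, with 1 more marker 0 higher in mdx5cv, and with 2000 UMIs 0 lower in WT. The tenocyte Tbx15 call between genotypes became 0 under these 5 settings and equal weights.

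At 1.5-fold in place of 2-fold, 883 genes were called higher and 1797 lower in the WT diaphragm fibroblasts (538 and 920 at 2-fold) and 768 and 1890 in mdx5cv (421 and 880). CPM scaling left the median log2 ratio of all genes at -0.13 in WT and -0.14 in mdx5cv, and scaling by the median ratio moved every ratio by 0.08 and 0.09. The progenitor-like, parenchymal, mesothelial-marker and stem-cell alternatives were chosen after seeing the data. Endothelial and myeloid cells were not run under the alternatives, so the Gata6 calls in them rest on the main setting alone. Depth limits Pitx1, Tcf21 and Tbx4, and mural cells altogether.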
